A study of Mus musculus with 12 samples.

Results

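The genes described here encode insulin-like growth factor 1 (Igf1), its receptor (Igf1r) and 6 IGF binding proteins (Igfbp2 to Igfbp7) in the brainstem of P15 mice. They were taken by name from the table of counts, and the 8 genes are 8 of the 55418 in that table. Outbred CFW mice of both sexes had been given either saline or morphine, with 3 mice per sex and treatment and 1 library per mouse. Morphine mice were injected at 15 mg/kg from P1 to P14 and saline mice over the same days, and the brainstem was collected 16 h after the last injection. The comparisons ask whether neonatal morphine changed expression over both sexes, in females, in males, and differently between the sexes.

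IGF1 is a secreted growth factor that promotes the growth and survival of neurons and oligodendrocytes in the developing brain. It acts through the receptor tyrosine kinase IGF1R, which recruits insulin receptor substrates and the PI3K, AKT and mTOR kinases. IGF binding proteins hold IGFs outside cells and lengthen their life or limit their access to the receptor, and proteases of the pappalysin family cut some of them to free the ligand. In the brain, meningeal, vascular and glial cells as well as neurons make these proteins.

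The libraries held between 27850565 and 48097947 counts on genes, and all 8 of the genes passed the filter on low counts in each fit. The tissue label was checked against 8 brainstem markers, all above 1 CPM on average, with a summed level of 608.7 to 789.3 CPM per library, whereas the deposited text on RNA extraction speaks of spinal cords. The library labelled morphine male 6 held 379.9 CPM of Xist, which is made from the inactive X chromosome of females, together with 12.8 CPM of the Y-linked gene Ddx3y. The other 5 male libraries had at most 2.71 CPM of Xist and at least 117.8 CPM of Ddx3y. Libraries also differed in how level depended on the GC content of transcripts: the slope of log2 level on GC was 0.43 and 0.55 per 10 points of GC in saline males 1 and 2, -0.52 in saline male 3, and between -0.32 and 0.26 in the other 9 libraries. Saline male 2 had a summed level of 37.0 CPM over 6 skeletal muscle markers, against at most 5.05 CPM in the other libraries. Values without saline male 3, and with an offset for GC content and gene length, are given beside the results that rest on them.

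The 8 genes differ widely in base composition, which is shown here because 3 of them followed the GC slope of the libraries. Transcript GC content was 38.0% for Igf1, higher than in only 3.48% of the genes tested, and 62.1% for Igfbp2 and 60.7% for Igfbp6, above 98.5% and 97.1% of the genes tested. The other 5 lay between 49.4% for Igf1r and 58.8% for Igfbp7. The first 90 coding bases of these 3 genes, taken from the GENCODE M21 transcripts on GRCm38, are printed 5′ to 3′ with every G and C in capitals. For Igfbp2 they lie on the plus strand at chr1:72824580-72824669 in exon 1, and for Igfbp6 on the plus strand at chr15:102144548-102144637 in exon 1. For Igf1 they lie on the plus strand at chr10:87859350-87859412 in exon 1 and chr10:87864731-87864757 in exon 2.
Igf1: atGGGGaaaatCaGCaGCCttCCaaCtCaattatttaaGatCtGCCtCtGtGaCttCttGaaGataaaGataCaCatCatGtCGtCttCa
Igfbp2: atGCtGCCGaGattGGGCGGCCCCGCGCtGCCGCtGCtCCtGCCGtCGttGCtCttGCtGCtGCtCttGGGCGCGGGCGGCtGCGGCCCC
Igfbp6: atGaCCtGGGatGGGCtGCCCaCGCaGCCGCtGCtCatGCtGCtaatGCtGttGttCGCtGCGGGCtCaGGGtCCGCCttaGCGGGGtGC
G and C make up 38.9% of this stretch in Igf1, 74.4% in Igfbp2 and 65.6% in Igfbp6. Over the whole coding region the shares were 51.9%, 65.9% and 63.0%, above those of the whole transcript in all 3 genes.

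Igfbp2 and Igfbp6 were the pair whose levels rose and fell together most closely from mouse to mouse, so their promoters are shown. Their Pearson's r was 0.90, and 0.60 without saline males 1 and 2. Spearman's rho did not pass (adjusted p of 0.180 by permutation). Both genes also rose with the GC slope of the libraries, with r of 0.88 and 0.90. Shared regulation was not tested. RefSeq on GRCm38.p6 gave a window of 300 bases around the RefSeq start for each of the 8 genes, with 9 windows in all because Igfbp2 has 2 starts. Capitals mark 3 motifs, each searched on both strands. The motif GGGCGG is the core of a GC box. The motif TATAAA is that of the TATA box, and the third motif, CCAAT, is that of the box of the same name. The Igfbp2 window at chr1:72824230-72824529 and the Igfbp6 window at chr15:102143936-102144235 are both on the plus strand. RefSeq and GENCODE M21 place some starts apart: the Igfbp2 window spans the GENCODE start of the gene, whereas that of Igfbp6 ends upstream of it.
Igfbp2: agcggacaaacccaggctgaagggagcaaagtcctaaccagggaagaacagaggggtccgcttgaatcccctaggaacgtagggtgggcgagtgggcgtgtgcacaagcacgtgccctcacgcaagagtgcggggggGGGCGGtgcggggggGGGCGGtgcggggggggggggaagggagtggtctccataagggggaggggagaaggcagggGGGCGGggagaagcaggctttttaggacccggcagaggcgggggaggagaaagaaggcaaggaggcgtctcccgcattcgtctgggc
Igfbp6: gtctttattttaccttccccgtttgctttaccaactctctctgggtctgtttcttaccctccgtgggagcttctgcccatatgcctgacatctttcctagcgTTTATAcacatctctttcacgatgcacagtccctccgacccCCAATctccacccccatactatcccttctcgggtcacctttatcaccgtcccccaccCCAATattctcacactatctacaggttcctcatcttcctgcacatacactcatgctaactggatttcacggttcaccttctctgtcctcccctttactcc
The printed Igfbp2 window held 3 copies of GGGCGG and neither of the other motifs, and its GC content was 67.0%. The other Igfbp2 window, at chr1:72825137-72825436, is not printed. It held none of the 3 motifs and had a GC content of 57.3%. The Igfbp6 window held 1 TATAAA, on the minus strand, and 2 copies of CCAAT, with a GC content of 49.7%. The printed windows shared none of the 3 motifs. Of 32851 mouse promoter windows of the same length, 35.7% held GGGCGG, 13.6% held TATAAA and 37.4% held CCAAT.

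In the genome, Igfbp2 (chr1:72824503-72852474, plus strand) and Igfbp5 (chr1:72857932-72874884, minus strand) are neighbors that converge, with 5457 bases between them. Igf1 lies at chr10:87858265-87937042 and Igf1r at chr7:67952827-68233668, both on the plus strand. Igfbp3 lies at chr11:7206086-7213923 on the minus strand and Igfbp4 at chr11:99041244-99054392 on the plus strand. Igfbp6 lies at chr15:102144362-102149511 on the plus strand. Igfbp7 lies at chr5:77349240-77408041 on the minus strand and shares 85 exonic bases with Polr2b on the other strand, and the strand setting of the counting is not given in the sources used here. All coordinates are GRCm38.

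Levels are given as CPM, the counts of a gene scaled to library size after TMM normalization, and genes are compared with one another only as CPM per kilobase of exon. On that scale Igfbp5 was highest at 21.1 ± 2.66 CPM per kb (SD, n = 12), followed by Igfbp7 at 20.8 ± 2.27 and Igfbp2 at 17.4 ± 9.38. Igfbp3 came next at 11.6 ± 1.20 CPM per kb. A lower tier was formed by Igfbp4 at 3.91 ± 0.92, Igf1r at 3.89 ± 0.34 and Igf1 at 2.92 ± 0.88 CPM per kb, and Igfbp6 was lowest at 1.502 ± 0.944. The order held within each of the 12 mice only between Igfbp3 and Igfbp4. Igfbp5 exceeded Igfbp7 in 8 of 12 mice, Igfbp7 exceeded Igfbp2 in 9 and Igfbp2 exceeded Igfbp3 in 10, and these spreads overlapped. Igfbp4 exceeded Igf1r in 5 of 12 mice, so that these neighbors were not separated. Igf1r exceeded Igf1 in 11 of 12 mice and Igf1 exceeded Igfbp6 in 10. The binding proteins thus spanned the range from the highest to the lowest of the 8 genes, and transcripts of the ligand and the receptor lay near its lower end.

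**Figure D1:**
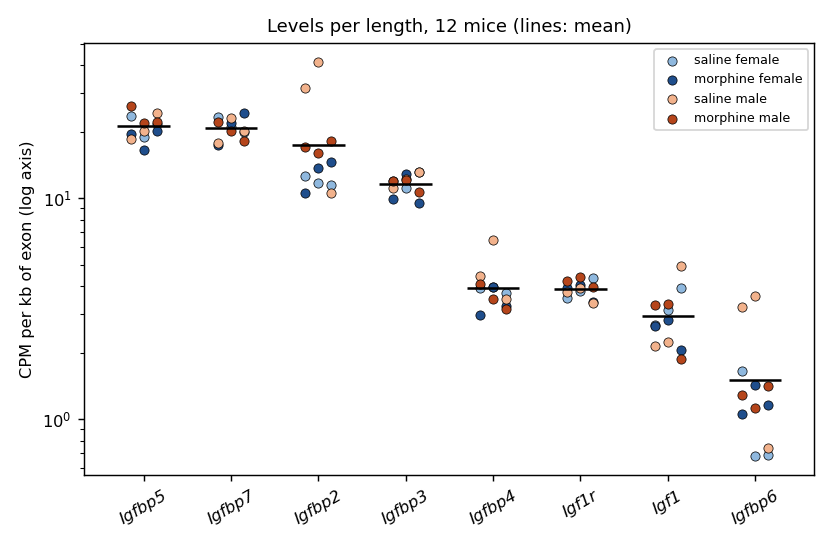
Level of each gene in CPM per kb of exon (vertical log axis) in 12 mice, with one point per mouse colored by group and a line at the mean of the 12. Igfbp5, Igfbp7, Igfbp2 and Igfbp3 had means from 21.1 down to 11.6 CPM per kb and the other 4 genes from 3.91 down to 1.502, with Igfbp2 and Igfbp6 the most spread.

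Over both sexes, none of the 8 genes passed the study's thresholds (unadjusted p under 0.05 with a log2 fold change beyond 0.26 in either direction), against 1.19% of the 18608 genes tested. The estimate was negative for 7 of the 8, all but Igf1r, with a median log2 fold change of -0.18, beside a median of -0.02 over all genes tested. The adjusted p of each of the 8 was 1.00 (edgeR quasi-likelihood test with Benjamini-Hochberg adjustment). Levels of the saline and morphine mice overlapped for each of them, and 0.043% of all genes tested did not overlap.

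The ligand Igf1 ranged in saline mice from 21.1 to 49.0 CPM with a median of 28.7, and in morphine mice from 18.5 to 33.0 CPM with a median of 26.9. The highest value was that of saline male 3 and the lowest that of morphine male 6, and the groups overlapped over most of their range. The log2 fold change over both sexes was -0.24 (SE 0.22, 95% interval -0.73 to 0.24), and -0.05 without saline male 3.

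In females, the level of Igf1 was lower after morphine. The 3 saline females had 26.5, 30.9 and 38.6 CPM and the 3 morphine females had 26.01, 27.8 and 20.4 CPM. The groups overlapped, since morphine female 2 lay above saline female 4, and 5.65% of the genes tested in females did not overlap. On the log2 scale the change was -0.38 (SE 0.17), with an unadjusted p of 0.0462 and an adjusted p of 1.00 by edgeR, and Igf1 was the 1 gene of the 8 to pass the thresholds in females, where 1.81% of 18109 genes did. The exact two-sided permutation test of the CPM gave p = 0.2, and the smallest p that 3 against 3 allows is 0.1. The call was kept with the GC and length offset, at -0.30 with a p of 0.00511 in edgeR. It was lost with total counts (p of 0.0619), with at least 10 counts required in every library (p of 0.0534) and in the contrast from the 12 mice (p of 0.275), all in edgeR. It was lost without saline female 5, saline female 6, morphine female 1 or morphine female 3, at log2 fold changes of -0.40, -0.20, -0.41 and -0.26. The summed level of 12 meningeal fibroblast markers was 195.6 to 291.1 CPM in saline females and 118.4 to 215.0 CPM in morphine females, with morphine female 3 lowest in both the markers and Igf1, and the part of these cells in the result was not tested.

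The same gene did not pass in males. Saline males had 21.1, 22.1 and 49.0 CPM of Igf1 and morphine males 32.6, 33.0 and 18.5 CPM. Saline male 3 was higher and saline males 1 and 2 were lower than morphine males 4 and 5. The value of 18.5 CPM was that of the library labelled morphine male 6, which held 379.9 CPM of Xist. The log2 fold change of Igf1 in males was -0.15 (SE 0.39), and 0.40 (SE 0.21) without saline male 3, with an adjusted p of 0.243. The change in males minus that in females was 0.25 (SE 0.46), with an unadjusted p of 0.594 in edgeR, so that a difference of Igf1 between the sexes was not detected. It was 0.74 with an adjusted p of 0.155 without saline male 3.

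The receptor gene Igf1r was the steadiest of the 8. Saline mice ranged from 56.6 to 73.1 CPM with a median of 63.3, and morphine mice from 57.0 to 74.0 CPM with a median of 67.2. Its coefficient of variation over the 12 mice was 8.76%. The log2 fold change over both sexes was 0.08 (SE 0.09, 95% interval -0.10 to 0.27). In males it was the 1 gene of the 8 whose groups did not overlap, with 63.1, 65.7 and 56.6 CPM in saline males and 70.5, 74.0 and 66.6 CPM in morphine males, and 9.1% of the genes tested in males did not overlap either. Each morphine male was thus above each saline male, by a small margin. The log2 fold change of Igf1r in males was 0.18 (SE 0.12), with an unadjusted p of 0.180 in edgeR, and the exact two-sided permutation test gave p = 0.1, the smallest it can give. In females the estimate for Igf1r was -0.05 (SE 0.11).

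Igfbp2 is a binding protein made in the developing brain by astrocytes and vascular cells, among others. Its levels were more uneven in males than in females, with a coefficient of variation of 51.2% against 12.2%. Saline males 1, 2 and 3 had 58.0, 76.0 and 19.6 CPM, and morphine males 4, 5 and 6 had 31.4, 29.6 and 33.7 CPM. Saline males 1 and 2 stood above all other mice, and saline male 3 was at the level of the females. In saline females the values were 23.3, 21.5 and 21.3 CPM, and in morphine females 19.4, 25.2 and 27.0 CPM.

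In males the log2 fold change of Igfbp2 was -0.70 (SE 0.43, 95% interval -1.71 to 0.32) and did not pass, with an unadjusted p of 0.149 in edgeR. It rested on single saline males: without saline male 2 it was -0.31 (SE 0.42), and without saline male 3 it was -1.05 (SE 0.13) with an adjusted p of 0.00958. With the GC and length offset, all 6 males included, it was -0.14 (SE 0.12) with an adjusted p of 0.741. In females it was 0.11 (SE 0.13). The change in males minus that in females was -0.79 (SE 0.48) with an unadjusted p of 0.125, -0.41 without saline male 2, -1.20 with an adjusted p of 0.00801 without saline male 3, and 0.02 with the offset. Over both sexes Igfbp2 had an estimate of -0.28 (SE 0.26), which ran from -0.07 without saline male 2 to -0.44 without saline male 3, where it passed with an adjusted p of 0.932. The part of the GC slope in the values without saline male 3 was not tested.

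Igfbp6, a binding protein with a preference for IGF2 over IGF1, was also uneven among the saline males, at a far lower level. Saline males 1, 2 and 3 had 3.58, 4.00 and 0.827 CPM, from 120, 183 and 27 counts. Exact Poisson 95% intervals, which cover counting error only, were 2.97 to 4.28, 3.44 to 4.63 and 0.545 to 1.20 CPM, so that the gap between saline male 3 and its group was wider than counting error. The morphine males, unlike for Igfbp2, lay within the range of the females. Morphine males had 1.43, 1.25 and 1.56 CPM, saline females 1.84, 0.760 and 0.764 CPM, and morphine females 1.17, 1.58 and 1.28 CPM. In males its log2 fold change was -0.99 (SE 0.53, 95% interval -2.24 to 0.26), -1.39 (SE 0.22) with an adjusted p of 0.0118 without saline male 3, -0.65 (SE 0.57) without saline male 2, and -0.45 (SE 0.20) with the offset. In females it was 0.27 (SE 0.38), and 0.80 with an adjusted p of 0.605 without saline female 4. The change in males minus that in females was -1.24 (SE 0.70), with an unadjusted p of 0.1004 in edgeR. It was -1.69 with an adjusted p of 0.0357 without saline male 3, -1.81 with an adjusted p of 0.797 without saline female 4, both past the thresholds, and -0.53 with the offset. Over both sexes the estimate for Igfbp6 was -0.38 (SE 0.38), and it ran from -0.15 without saline male 2 to -0.56 without saline male 3, with no call.

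Igfbp4, which mostly limits the action of IGFs and is cut by the protease PAPP-A, came nearest to the thresholds over both sexes. Saline mice ranged from 15.4 to 28.6 CPM with a median of 17.4, and morphine mice from 13.0 to 18.0 CPM with a median of 14.9. Morphine females 1 and 3 and morphine male 6, at 13.0, 14.4 and 13.9 CPM, lay below all saline mice. Morphine male 5, at 15.41 CPM, was level with the lowest saline mouse, saline male 3 at 15.44 CPM. The highest value was that of saline male 2. The log2 fold change was -0.30 (SE 0.14, 95% interval -0.60 to 0.01), with an unadjusted p of 0.0550 in edgeR, and the exact two-sided permutation test of the CPM gave p = 0.0628. With the GC and length offset it was -0.28 with an unadjusted p of 0.0301, which passes both thresholds, with an adjusted p of 1.00. It also passed without saline male 3 (-0.39), saline female 6 (-0.34) or morphine female 2 (-0.37), and it was -0.17 without saline male 2. The estimates within sexes were -0.20 (SE 0.13) in females and -0.43 (SE 0.24) in males, and each turned on single mice. In females it was -0.10 without morphine female 1 and passed without morphine female 2, at -0.33 with an adjusted p of 0.954. In males it was -0.17 without saline male 2 and passed without saline male 3, at -0.58 with an adjusted p of 0.0599.

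Igfbp3, the main IGF carrier in blood, had a narrow range in these libraries. Saline mice lay between 34.7 and 41.1 CPM with a median of 37.8, and morphine mice between 29.8 and 40.4 CPM with a median of 35.4. Morphine females 1 and 3, at 31.1 and 29.8 CPM, were the lowest of the 12 mice. The log2 fold change over both sexes was -0.11 (SE 0.10), in females -0.17 (SE 0.14) and in males -0.08 (SE 0.14). In females it passed without morphine female 2, at -0.32 with an adjusted p of 0.954.

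Igfbp5 and Igfbp7 gave the estimates nearest to 0 over both sexes. Igfbp5, which binds to extracellular matrix, ranged from 111.4 to 145.7 CPM in saline mice and from 99.5 to 156.3 CPM in morphine mice, and its estimate was -0.01 on the log2 scale (SE 0.10, 95% interval -0.23 to 0.22). Its estimates in the sexes pointed apart, at -0.19 (SE 0.11) in females and 0.14 (SE 0.15) in males. The difference between them was 0.35 (SE 0.19), with an unadjusted p of 0.0904 in edgeR, and it was 0.46 with an adjusted p of 0.0934 without saline male 3. Without that library the change in males was 0.30 with an adjusted p of 0.110. Igfbp7, a distant family member of low affinity for IGFs that is made by blood vessels, ranged from 21.4 to 28.2 CPM in saline mice and from 21.1 to 29.5 CPM in morphine mice. Its log2 fold change was -0.00 over both sexes (SE 0.10, 95% interval -0.23 to 0.22), -0.02 in females and -0.02 in males.

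**Figure D2:**
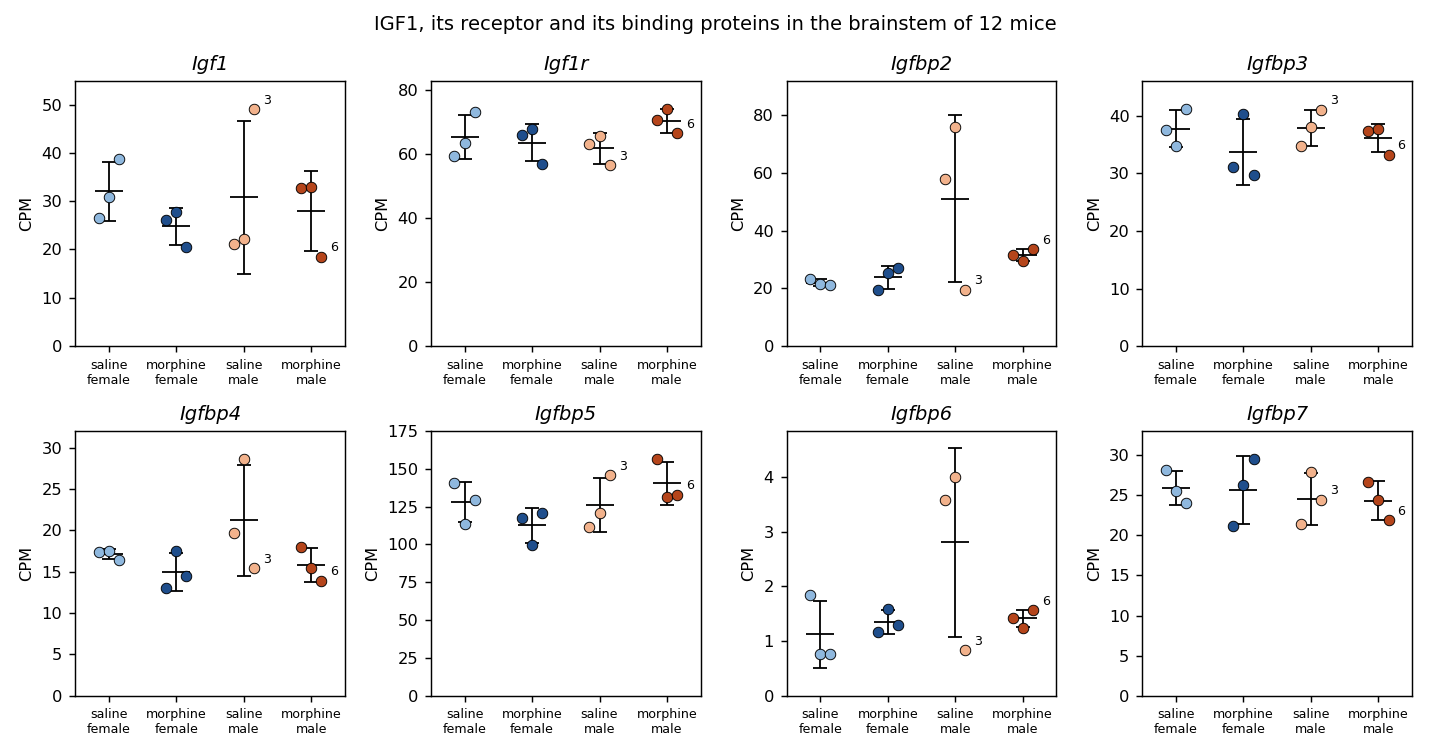
Level in CPM (vertical axes, from 0) of the 8 genes in the 4 groups, with one point per mouse, a bar at the mean of 3 mice and whiskers of 1 SD. The numerals 3 and 6 mark saline male 3 and the library labelled morphine male 6. For Igfbp2 and Igfbp6, saline males 1 and 2 sit above all other mice, at 58.0 and 76.0 CPM and at 3.58 and 4.00 CPM.

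In males none of the 8 genes passed the thresholds, against 2.99% of the 18166 genes tested. Among all genes in males 1.92% passed as higher and 1.07% as lower. Without saline male 3, 4 of the 8 passed, with Igfbp2, Igfbp4 and Igfbp6 lower and Igfbp5 higher, while the number of genes that passed among all tested rose from 543 to 5341. With all 12 mice, the test of a different change between the sexes was passed by none of the 8 and by 2.94% of 19027 genes, 1.61% with a higher change in males and 1.33% with a lower one. Without saline male 3 it was passed by 4 of them, with Igf1 and Igfbp5 higher in males and Igfbp2 and Igfbp6 lower. The number of all genes that passed went from 559 to 4695. Both fits without saline male 3 kept saline males 1 and 2. Their GC slopes, 0.43 and 0.55 per 10 points of GC, were the highest of the 12 libraries. The rise over all genes shows that such calls were not particular to the 8. The share of all genes tested that passed was not computed for the fits without saline male 3. Whether 4 of 8 exceeds that share was therefore not judged, and the part of the slopes was not tested. Scaling the libraries by total counts in place of TMM moved the median over all genes from -0.06 to 0.06 in males and from -0.03 to 0.07 for the difference between the sexes, and in males it moved the share of higher calls among all calls from 64.3% to 91.3%. Under that scaling Igf1r passed in males, at 0.31 with an adjusted p of 1.00. The share of higher calls over both sexes went from 51.1% to 72.7% under total counts, and in females from 51.2% to 34.2% with the GC and length offset. Over all genes the share for the difference between sexes went from 54.7% to 81.2% under total counts.

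**Figure D3:**
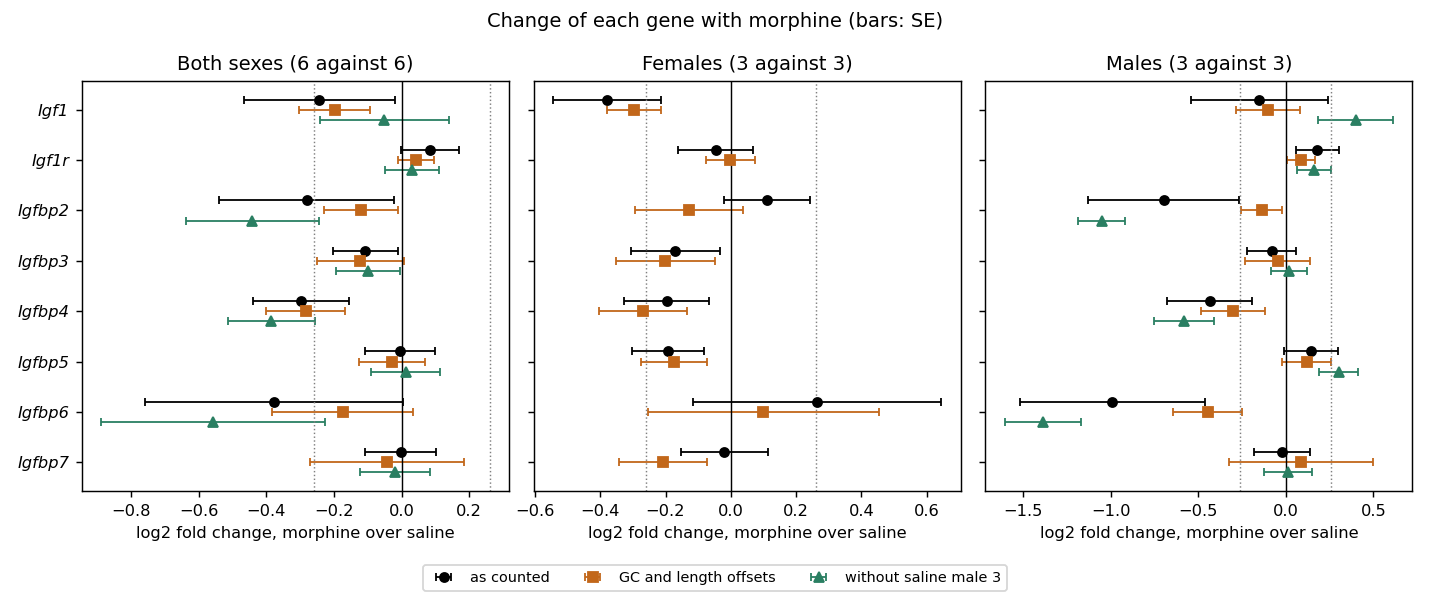
Log2 fold change of morphine over saline (horizontal axes, with scales that differ between panels) for each gene over both sexes, in females and in males, with bars of 1 SE and dotted lines at an absolute value of 0.26. Circles are the values as counted, squares the values with the GC and length offset, and triangles the values without saline male 3, which leave 5 saline mice over both sexes and 2 in males. In males Igfbp2 lies at -0.70 as counted, -0.14 with the offset and -1.05 without saline male 3.

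Between the sexes, with treatment as a covariate, Igfbp2 was lower in females. Females ranged from 19.4 to 27.0 CPM with a median of 22.4, and males from 19.6 to 76.0 CPM with a median of 32.5. Saline male 3 alone among the males lay within the range of the females, and each other male was above all 6 females. As females over males the log2 fold change was -0.80 (SE 0.26, 95% interval -1.36 to -0.24), with an unadjusted p of 0.00887 and an adjusted p of 0.734 in edgeR, and the exact two-sided permutation test gave p = 0.0195. It was the 1 gene of the 8 that passed in this comparison, where 3.94% of 18608 genes passed and 3.05% passed as lower in females. The call was kept without any 1 of the 12 mice, at -0.96 to -0.58. It was also kept with the GC and length offset, at a smaller -0.33 (SE 0.11) with an unadjusted p of 0.00958. Without the library labelled morphine male 6 it was -0.83. Markers of the choroid plexus, which secretes cerebrospinal fluid, also differed between the sexes. Their summed level over 8 genes, all above 1 CPM on average, was 275.3 to 857.1 CPM in males and 13.0 to 168.6 CPM in 5 of the females, with 483.8 CPM in saline female 6. Igfbp2 had an r of 0.31 with this list (adjusted p of 0.520 by permutation), and the part of this tissue in the difference was not tested. Igfbp6 in females over males was -0.70 (SE 0.38) and did not pass, but passed at -0.89 with an adjusted p of 0.0994 without saline male 3.

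Across the 12 mice, the levels of Igf1, Igfbp2 and Igfbp6 followed the GC slope of the libraries. Their log2 levels were compared with the slope and with the mean log2 level of 8 lists of cell type markers, and those lists with the slope, 80 relations in all, with p values from 100000 permutations adjusted over them. Igf1 fell as the slope rose, with Pearson's r of -0.86 (permutation p = 0.00048, adjusted p = 0.0064) and Spearman's rho of -0.85 (permutation p = 0.00106, adjusted p = 0.023). Igfbp2 rose with it, with r of 0.88 (permutation p = 0.00012, adjusted p = 0.00224) and rho of 0.80 (permutation p = 0.00317, adjusted p = 0.0362). Igfbp6 rose likewise, with r of 0.90 (permutation p = 0.00014, adjusted p = 0.00224) and rho of 0.81 (permutation p = 0.00223, adjusted p = 0.0297). Without saline males 2 and 3, the farthest on the slope, r was -0.84, 0.83 and 0.85, and after the group means were subtracted it was -0.94, 0.92 and 0.90. The other 5 genes had r between -0.38 and 0.54, and none of these passed. The slope was estimated from 18608 genes that included these. An effect of the slope on their levels was not separated from other differences between mice. Igf1, Igfbp2 and Igfbp6 lie at the extremes of GC content, at percentiles 3.48, 98.5 and 97.1 of the genes tested. Igfbp7, at percentile 93.8, did not follow the slope, with r of -0.00099 and rho of 0.18. Whether Igf1, Igfbp2 and Igfbp6 followed the slope more closely than other genes of such GC content was not tested.

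**Figure D4:**
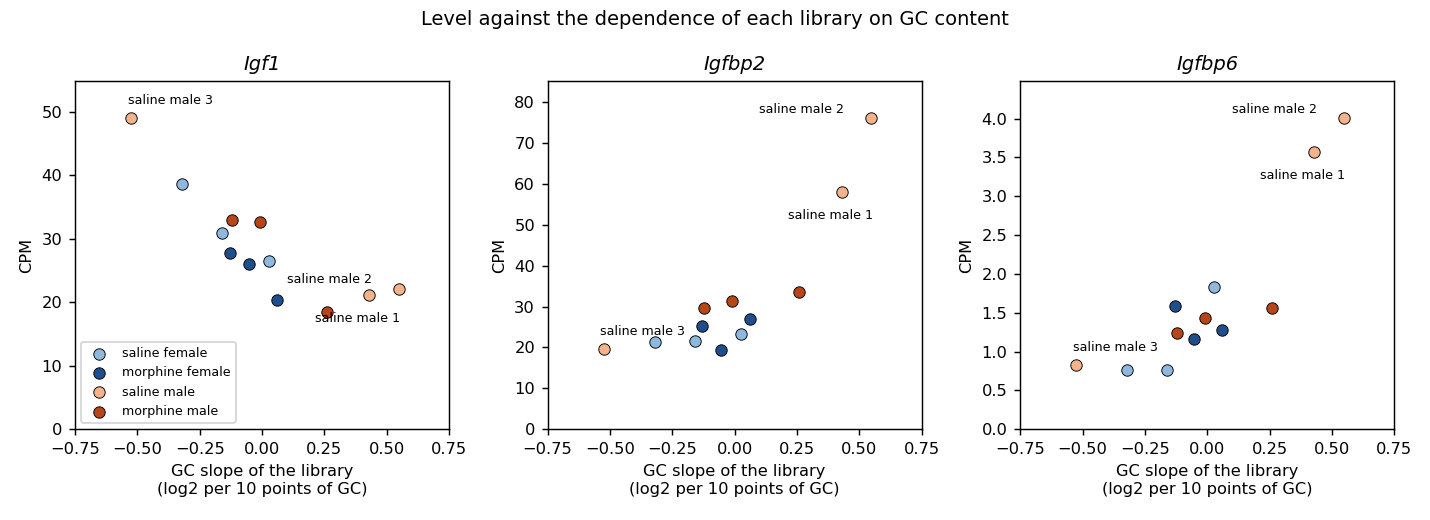
Level in CPM (vertical axes) of Igf1, Igfbp2 and Igfbp6 against the slope of log2 level on transcript GC content in each library (horizontal axes, log2 per 10 points of GC), with one point per mouse colored by group. Igf1, at 38.0% GC, falls from 49.0 CPM in saline male 3, while Igfbp2 and Igfbp6, at 62.1% and 60.7% GC, peak in saline male 2.

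The level of Igfbp3 moved with the list of meningeal fibroblast markers. Over the 12 mice its level rose with that of 12 markers of meningeal fibroblasts, the collagen-making cells of the membranes around the brain, with r of 0.89 (permutation p = 0.00014, adjusted p = 0.00224) and rho of 0.84 (permutation p = 0.00115, adjusted p = 0.023). All 12 markers were detected above 1 CPM on average, and their summed level was 195.6 to 291.1 CPM in saline females, 118.4 to 215.0 in morphine females, 175.0 to 294.5 in saline males and 165.3 to 258.9 in morphine males. Morphine females 1 and 3, lowest in Igfbp3, had the lowest sums, at 123.9 and 118.4 CPM. Without these 2 mice r was 0.73, and after the group means were subtracted it was 0.90. The relation of the list with the GC slope had an r of -0.27. Igf1 had an r of 0.65 with the list (permutation p = 0.0206, adjusted p = 0.0823) and a rho of 0.69 (permutation p = 0.0151, adjusted p = 0.110), with r of 0.69 after the group means were subtracted and also without morphine females 1 and 3. In bulk tissue, fewer cells of a type and less RNA per cell cannot be told apart, and the part of the membranes left on each sample in the level of Igfbp3 was not tested. Of the 15056 genes searched, those most like Igfbp3 over the 12 mice were Lyve1, F13a1 and C1qtnf7, with r of 0.94, 0.91 and 0.91. Lyve1 and F13a1 are known from macrophages at the borders of the brain.

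**Figure D5:**
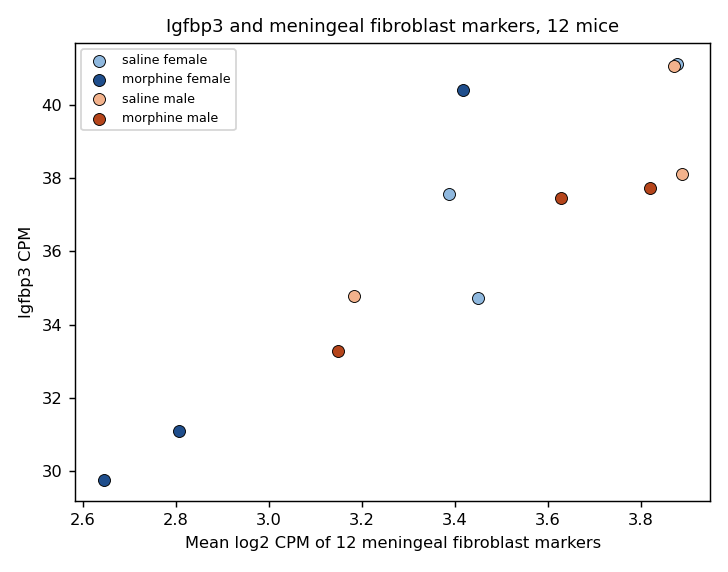
Level of Igfbp3 in CPM (vertical axis, not from 0) against the mean log2 CPM of 12 markers of meningeal fibroblasts (horizontal axis) in 12 mice, with one point per mouse colored by group. Morphine females 1 and 3 lie at the lower left, at 31.1 and 29.8 CPM, and r over the 12 mice was 0.89.

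Igf1r fell as the level of 8 neuronal markers rose, with r of -0.84 (permutation p = 0.00116, adjusted p = 0.0103) and rho of -0.72 (permutation p = 0.0105, adjusted p = 0.0926), and r was -0.76 without saline female 4 and saline male 3. Igfbp2 and Igfbp6 rose with the lists of endothelial and microglial markers and Igfbp6 also with that of oligodendrocytes, at r between 0.72 and 0.89 with adjusted p between 0.00224 and 0.0457, while Igf1 fell with the microglial and oligodendrocyte lists, at r of -0.73 with an adjusted p of 0.0378 for both. By Spearman's rho, Igf1 and Igfbp6 passed with the microglial list (adjusted p = 0.0297 and 0.023 by permutation), and the others did not. The adjusted p of rho by permutation was 0.172 and 0.0926 for Igfbp2 with the endothelial and microglial lists, 0.230 and 0.394 for Igfbp6 with the endothelial and oligodendrocyte lists, and 0.0926 for Igf1 with the oligodendrocyte list. Without saline males 1 and 2, the farthest on the microglial list, r was 0.47 for Igfbp2 and 0.75 for Igfbp6. The endothelial, microglial and oligodendrocyte lists themselves followed the GC slope, with r of 0.81, 0.90 and 0.80. Igfbp4 rose with the list of mural cells, with r of 0.77 (permutation p = 0.00962, adjusted p = 0.0481) and rho of 0.45 (permutation p = 0.142, adjusted p = 0.394). That relation rested on few mice, since r was 0.28 without saline male 2 and morphine female 3. In all, 10 relations between a gene and a list passed an adjusted p of 0.05 by Pearson's r, and 3 of the 8 with the GC slope did. Igfbp5 and Igfbp7 passed with no list.

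Of the 28 pairs among the 8 genes, 1 passed after adjustment. Igfbp2 and Igfbp6 rose together with r of 0.90 (permutation p = 0.00051, adjusted p = 0.0143) and rho of 0.75 (permutation p = 0.00759, adjusted p = 0.180). Without the 2 mice farthest in Igfbp2, r was 0.60. Both genes rose with the GC slope, with r of 0.88 and 0.90, and its part in their relation was not tested. Igf1 had r of -0.56 with Igfbp2, -0.65 with Igfbp6 and 0.68 with Igfbp3, none past the adjusted threshold. The neighboring genes Igfbp2 and Igfbp5 had an r of -0.16.

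By likeness over the 12 mice, Igfbp2 was nearest to the noncoding RNA AI849053, to Zfr2 and to Col4a1, a collagen of vascular basement membrane, each at r of 0.97. Igfbp6 was nearest to Abhd11os, Mcrip2 and the immediate early gene Junb, at 0.96, 0.96 and 0.95. The transcripts of these 6 genes had GC contents between 51.6% and 62.8%. Igf1 was nearest to Hacd4, Ecm2 and Emp1, at r of 0.96, 0.95 and 0.95, with GC contents of 42.0%, 39.1% and 45.3%. Igf1r was nearest to Wnt2b, Kmt2a and Ddx55 at 0.93, and Igfbp4 to Ski, Fzd2 and Pigv at 0.93 to 0.90. The nearest genes were less close for Igfbp5 (Cd86, Hspa12a and Sv2b, at 0.85 to 0.82) and for Igfbp7 (Csf2rb, Lrrc59 and Gimap4, at 0.87 to 0.85). The 12 libraries share depth and GC differences, so these values are descriptions of the libraries.

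Beyond the 8 genes, 50 genes of the same pathway were examined, and 46 of them passed the filter on low counts. Over both sexes 1 of the 46 passed as higher, as did 0.607% of all genes, and none as lower, with 17 positive and 29 negative estimates and a median log2 fold change of -0.02. In females none passed, where 1.81% of all genes did. In males 1 passed, as higher, where 2.99% of all genes passed, and 1 had a higher change in males than in females, where 2.94% passed. Between the sexes 1 passed as higher and 2 as lower in females, where 3.94% of all genes passed. These counts are near the shares among all genes.

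Among other ligands and receptors, Igf2, the second IGF, had 0.66 to 2.69 CPM and a log2 fold change with morphine of -0.27 (SE 0.24). Igf2 was lower in females than in males, at 1.14 ± 0.47 against 2.05 ± 0.42 CPM (SD, n = 6 each), with a log2 fold change of -0.86 (SE 0.24) and an adjusted p of 0.734 in edgeR, and it passed without each of the 12 mice in turn. Its values in the saline females were 1.25, 0.88 and 2.01 CPM and in the saline males 1.64, 2.69 and 1.78 CPM, so the sexes overlapped. Saline female 6, highest in Igf2 among the females, was also the female with the highest level of choroid plexus markers, and the part of that tissue in the difference was not tested. Insr, the insulin receptor, had 81.8 ± 9.25 CPM over the 12 mice and a log2 fold change with morphine of 0.03 (SE 0.10). The orphan receptor gene Insrr was also lower in females, at -0.57 (SE 0.20) with an adjusted p of 0.734, and did not pass with the GC and length offset, at -0.30.

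Igf2r, the scavenger receptor of IGF2, passed the test of a different change between the sexes. Saline females had 38.8, 41.0 and 43.7 CPM and morphine females 34.1, 44.6 and 34.1 CPM, while saline males had 39.2, 41.5 and 33.1 CPM and morphine males 47.4, 43.6 and 49.3 CPM. The morphine males were above all saline males, and the females overlapped. The highest value, 49.3 CPM, was that of the library labelled morphine male 6, which held 379.9 CPM of Xist. In males 9.1% of the genes tested did not overlap either. The change in males minus that in females was 0.45 (SE 0.19), with an unadjusted p of 0.0380 and an adjusted p of 0.985 in edgeR. The call was kept without 5 of the 12 mice. The estimate ran from 0.34 without saline male 3 to 0.59 without morphine female 2. Over both sexes the log2 fold change of Igf2r was 0.10 (SE 0.11).

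Igfbpl1, a binding protein-like gene of immature neurons, was the gene that passed over both sexes, with a log2 fold change of 0.73 (SE 0.33), an unadjusted p of 0.0437 and an adjusted p of 1.00 in edgeR, and it also passed in males at 1.10 (SE 0.39). It was scarcely expressed, at 0.21 to 0.82 CPM in saline mice and 0.58 to 1.64 CPM in morphine mice. The groups overlapped, and the highest value was that of morphine male 5, without which the estimate over both sexes was 0.48. With the GC and length offset it was 0.76, with an unadjusted p of 0.0669. Markers of cerebellar granule cells were high in some of the same mice. Their summed level over 6 genes, all above 1 CPM on average, was 119.7 to 190.7 CPM in morphine males, 97.6 to 134.0 in saline males, 112.4 to 124.8 in morphine females and 100.4 to 139.4 in saline females. Morphine male 5, then morphine male 4 and saline female 6, were highest in both the markers and Igfbpl1. Saline male 3, with 134.0 CPM of the markers, had only 0.43 CPM of Igfbpl1. A correlation of Igfbpl1 with the markers was not tested, nor was the part of such cells in the result. The call over both sexes was kept without 3 of the 12 mice and was lost without each of the others. In males it was lost without saline male 1, saline male 2 or morphine male 5, at 0.73 to 1.17.

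The genes that act on or beside the binding proteins showed little change. Pappa and Stc2, the protease and an inhibitor of it, had log2 fold changes of -0.00 (SE 0.15) and 0.08 (SE 0.21). Of the growth hormone axis, Ghr (the growth hormone receptor) had -0.04 (SE 0.14) and Socs2, a feedback inhibitor that it induces, 0.05 (SE 0.12). Among adaptors, Irs2 had -0.05 (SE 0.08) and Grb10, which binds and inhibits the receptor, 0.07 (SE 0.06), and none of these passed. Grb14, a related adaptor, was higher in females than in males by a log2 fold change of 0.29 (SE 0.09), at 70.7 ± 7.74 against 58.3 ± 4.05 CPM (SD, n = 6 each) with overlapping ranges, and its adjusted p was 0.734. It no longer passed without morphine female 3 or morphine male 4, at 0.22 and 0.25, or with the offset, at 0.18. None of the 24 genes of PI3K, AKT and mTOR signaling passed in any of the 5 comparisons. Among all genes 1.19% passed over both sexes, 1.81% in females, 2.99% in males, 2.94% for the interaction and 3.94% between the sexes. With such shares few calls could arise among 24 genes. The median log2 fold change of the 24 over both sexes was -0.03. The liver-made carriers Igfbp1 and Igfals and the insulin genes Ins1 and Ins2 did not pass the filter on low counts, with means of at most 0.0810 CPM.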

How the data were processed

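Poly-A RNA of 12 mouse brainstems, 1 library per mouse, was sequenced by the authors. Reads went through scruff and Trimmomatic, then through STAR against mm10, and featureCounts summed them over the exons of Ensembl genes (GRCm38). The submitters' processing notes also name Subread, limma and edgeR, and versions are not given in the sources used here. The deposited values are counts per gene, whole numbers whose library totals differ, and were taken as raw. Groups came from the labels, which do not give the dam.

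Every one of the 55418 symbols matched GENCODE M21, and 115 stand for more than 1 gene there. After filterByExpr and TMM normalization, genes were fitted in edgeR 4.0.16 (R 4.3.3) by quasi-likelihood: over both sexes with sex as a covariate, in each sex alone, for the interaction of treatment and sex, and between the sexes with treatment as a covariate. Thresholds were those of the study, an unadjusted p under 0.05 and a log2 fold change beyond 0.26, and Benjamini-Hochberg adjusted p values over all genes tested are given beside. With 6 or 3 mice per group, p values rest on the spread between those mice. Levels of single libraries use TMM factors over the 12 libraries, and log2 CPM has a prior count of 2. Exact permutation tests compared mean CPM, in Python 3.11.15 with scipy 1.17.1.

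Alternatives were DESeq2 1.42.0, its size factors in edgeR, total counts, no filter, at least 10 counts in every library, exactTest, a fit without covariates, a block for the replicate number, contrasts from the 12 mice and leaving out each mouse. Offsets from a loess curve (span 0.5) on GC and on length of each gene were chosen after seeing the data. The fitting steps were tested on simulated data with known changes. The lowest ratio of squared difference to sampling noise over 66 pairs of libraries was 7.07, so no library was counted as a copy of another.

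The 8 genes, the pathway lists and the marker lists were chosen with earlier results of these data known. The genes named are those 8, Igf2, Igf2r, Insr, Irs2, Pappa, Stc2, Ghr, Socs2 and Grb10 whatever their values, any other pathway gene that passed in a comparison, and for each of the 8 the 3 genes with the highest correlation of log2 CPM over the 12 libraries among genes with a mean of at least 1 CPM. The 4 pathway genes that failed the filter are named besides.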

Additional observations from a re-analysis of the deposited data

Results flagged for a closer look

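Igfbp4 in saline male 2, at 28.6 CPM, stood apart from the other 5 saline mice by Dixon's test, which was run on 16 groups of 6 mice, and chance flags about 1 group in 20. Its summed level of skeletal muscle markers, 37.0 CPM, was the highest of the 12 libraries, and its part in the value was not tested.

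The change of Igf2r with morphine in males exceeded that in females by 0.45 on the log2 scale (SE 0.19). The unadjusted p was 0.0380 and the adjusted p 0.985 in the edgeR interaction test, which 2.94% of 19027 genes passed. The morphine males were above all saline males and the females overlapped. The highest value, 49.3 CPM, was that of the library labelled morphine male 6, which held 379.9 CPM of Xist. In males 9.1% of the genes tested did not overlap either.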

How the results depend on the processing

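Of 680 values of the 8 genes under other settings, 603 kept their direction and their side of the thresholds, 7 lost a call, 27 gained one and 43 changed sign, with 0 of these past the thresholds. The causes were not tested. Over both sexes, 1 of the 8 genes (Igfbp4) passed with DESeq2, with no filter, with the loess offsets and with the replicate block. Replicate numbers did not pair the mice (only number 1 correlated best with its own number, at r of 0.18), and the block left 182 of 221 calls among all genes. In females 0 of the 8 passed with total counts, with at least 10 counts in every library or in a contrast from the 12 mice. In males 1 passed with total counts and 1 with no filter, for the interaction 1 with total counts and 2 with no filter, and between the sexes 2 with no filter.

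Among all genes, calls went from 221 to 754 over both sexes, from 328 to 1094 in females, from 543 to 985 in males, from 559 to 1665 for the interaction and from 733 to 2321 between the sexes with no filter, which tests more genes. The contrast from the 12 mice gave 218 in females, and the loess offsets 1172 in males and 1081 for the interaction.

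Changes of sign, none past the thresholds, were these log2 fold changes. With total counts over both sexes they were 0.0433 for Igfbp5, 0.04505 for Igfbp7, 0.0470 for Pappa, 0.0124 for Ghr and 3.21e-05 for Irs2, and in males 0.0454 for Igfbp3 and 0.10 for Igfbp7. With the loess offsets they were -0.13 for Igfbp2 in females, 0.0219 for Igfbp2 in the interaction and 0.0883 for Igfbp7 in males. Igfbp5 over both sexes was 0.00328 with exactTest and 0.00326 with no covariate. With at least 10 counts in every library Igfbp7 was 0.000181 and Pappa 0.000716, and Pappa was 0.0104 with the replicate block. Igfbp7 was 0.00421 in males in the contrast from the 12 mice, and in the interaction -0.00785 with DESeq2, -0.00773 with its size factors and -0.000236 with no filter.

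Leaving out 1 mouse at a time gave 0 to 2 of the 8 genes and 177 to 458 of all genes over both sexes, 0 to 3 and 208 to 1482 in females, 0 to 4 and 253 to 5341 in males, 0 to 4 and 290 to 4695 for the interaction, and 1 to 2 and 330 to 3947 between the sexes. Values that changed sign ranged over both sexes from -0.0639 to 0.0509 for Igfbp5, -0.0728 to 0.0347 for Igfbp7, -0.0187 to 0.0727 for Insr, -0.0855 to 0.0944 for Pappa, -0.11 to 0.0695 for Ghr, -0.00869 to 0.14 for Socs2 and -0.00380 to 0.17 for Stc2. In females they ranged from -0.12 to 0.0560 for Igf1r and -0.13 to 0.11 for Igfbp7, and in males from -0.36 to 0.40 for Igf1, -0.14 to 0.0192 for Igfbp3 and -0.11 to 0.0642 for Igfbp7. For the interaction they ranged from -0.43 to 0.0417 for Igfbp4 and -0.13 to 0.13 for Igfbp7, and between the sexes from -0.16 to 0.14 for Igf1 and -0.10 to 0.00857 for Igf1r. With 25 to 183 counts per library, Igfbp6 was the gene of the 8 most limited by depth.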
